A study of Rattus norvegicus with 30 samples.

Results

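Rats that had lost 90% of the liver were compared with rats that had lost 30% of it, both 24 hours after surgery, on gene expression arrays of liver tissue. The arrays were chosen by the resection that the labels give for each sample: 6 arrays of the 90% group (PH90) and 6 of the 30% group (PH30), 12 of the 30 in the series. Every sample was liver of a wildtype Wistar rat, taken as a small piece and frozen, with 1 array each. The other groups were 6 samples after 70% resection (PH70), 6 after a sham operation and 6 from unoperated rats, and they enter below only as points of orientation. The sources used here give no age or sex, and each sample number is read as 1 rat, which the labels do not state in words. If some samples came from 1 animal, the p-values measure only the spread between these samples.

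Partial hepatectomy is the classic model of liver regeneration: the lobes that remain are not injured, and their hepatocytes leave quiescence, copy their DNA and divide until the mass is restored, while the remnant goes on making bile, urea and plasma proteins. The size of the resection sets the load on each remaining hepatocyte. Removal of a small part is tolerated with little cell division, whereas removal of nearly the whole organ leaves a remnant that can fail. The question put to the data was how the liver transcriptome after the extreme resection differed from that after the small one.

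The arrays reported 18166 genes with 1 gene symbol. The deposited values are log2 signals that had been centred on each probe set's median over the 30 arrays, so a value of 0 is a typical array of the series, a value of 1 is 2-fold more signal, and nothing can be said of how abundant a transcript was. For that reason the tissue label could not be checked against the level of hepatocyte genes. Array profiles of the PH90 rats correlated with each other at 0.755 to 0.827 (the mean of an array's correlations with the others of its group, over genes). Among the PH30 rats, rat 95 stood apart: its profile correlated at -0.113 with the other PH30 rats, against 0.18 to 0.245 for those, and at 0.498 with the PH70 rats. In the PH70 group rat 139 correlated at -0.114 with the other PH70 rats, at -0.004 with the PH30 rats and at -0.061 with the PH90 rats. Both profiles go against their labels, rat 95 by its likeness to PH70 and rat 139 by its distance from PH70. Whether the labels are as intended was not tested, an exchange of labels would change the PH30 and PH70 values below, and both rats were kept as labelled. Where leaving them out moved a count or a named difference that the text turns on, both values are given.

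PH90 livers differed from PH30 livers across much of the transcriptome. At an adjusted p below 0.05 in limma, 5715 of 18166 genes (31.5%) were called, 3343 higher in PH90 (18.4%) and 2372 lower (13.1%), around a median difference over all genes of -0.02 on the log2 scale. Of the called genes 708 differed at least 2-fold (3.9% of the genes tested), 302 of them higher (1.66%) and 406 lower (2.23%). For 2349 genes (12.9%) the 6 PH90 values and the 6 PH30 values did not overlap, 7.85% with PH90 above and 5.08% with PH90 below. Against PH70 livers, PH90 livers differed in 4454 genes (24.5%), while PH70 and PH30 livers differed in 413 (2.27%). The last count was 2420 without rats 95 and 139. These comparisons share arrays and are set side by side as values of their own. A direct test of whether a gene's step between 70 and 90% differed from its step between 30 and 70%, below called the step difference, called 1451 genes (7.99%), 3.47% with a positive and 4.52% with a negative difference. A negative value can be a gene whose rise ended after 70% or a gene that fell mainly after it.

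**Figure D1:**
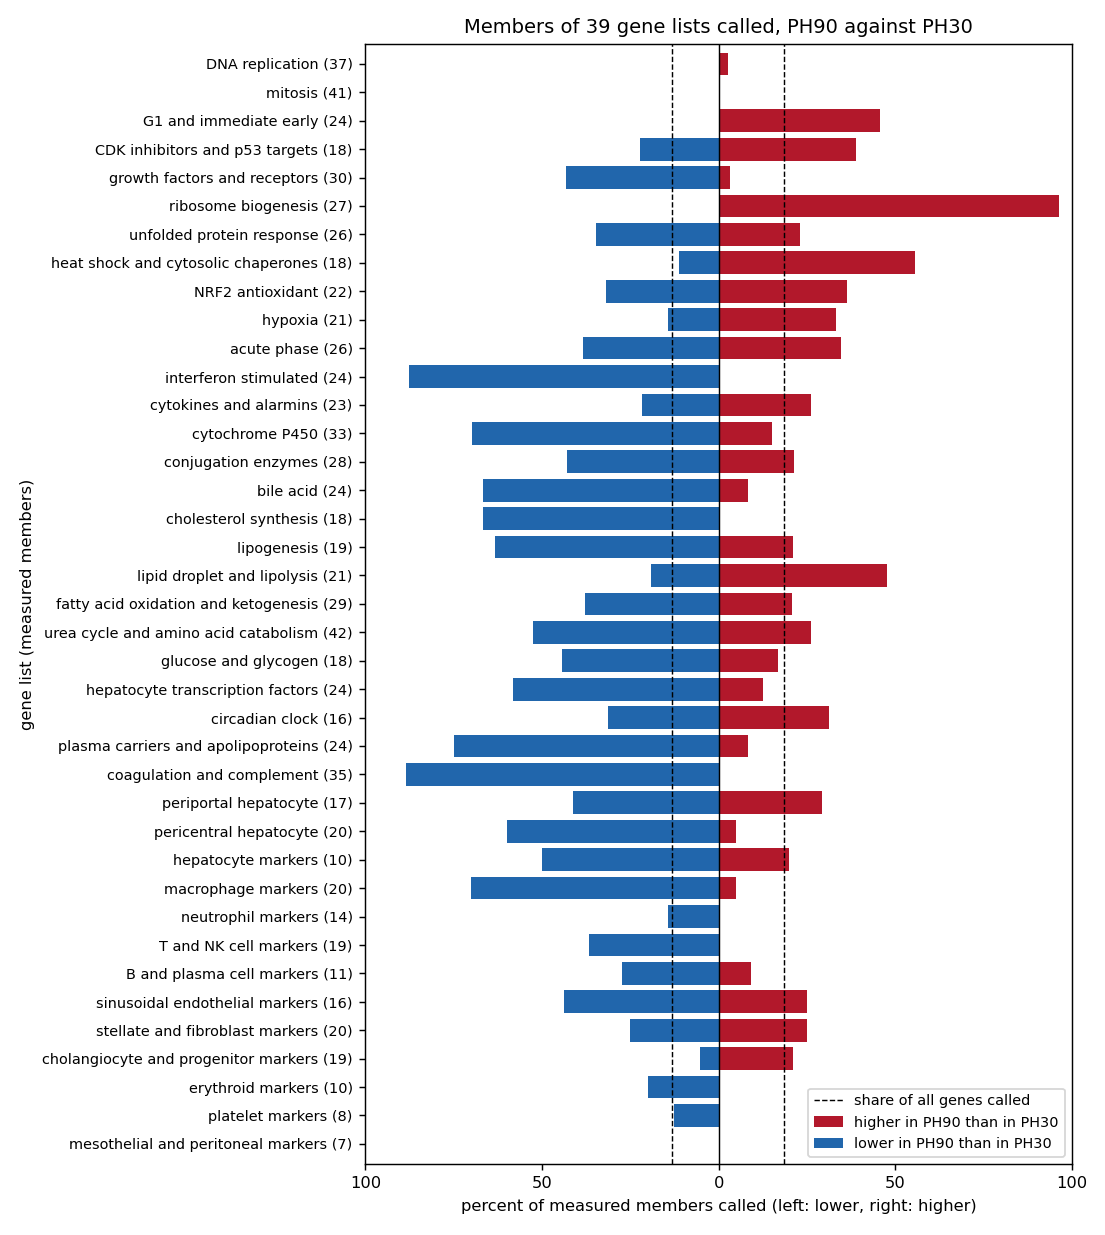
Percent of the measured members of each gene list that were called higher (right) or lower (left) in PH90 than in PH30 livers, with dashed lines at the share of all genes called, 18.4% higher and 13.1% lower. Ribosome biogenesis reaches furthest right, with 26 of 27 members higher, and coagulation and complement and interferon-stimulated genes reach furthest left, with 31 of 35 and 21 of 24 lower.

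The largest rise was in Npy, which encodes neuropeptide Y, a transmitter of sympathetic nerves and hypothalamic neurons that stimulates feeding. Its lowest, median and highest values were 4.13, 4.79 and 5.06 in the PH90 livers, against -0.54, -0.06 and 0.42 in the PH30 livers. Every PH90 rat lay far above every PH30 rat, a 28.3-fold difference (log2 difference 4.82, SE 0.16, adjusted p = 8.48e-20). After quantile normalization, which gives all arrays the same distribution of values, the difference was 3.46 (adjusted p = 7.24e-14), an 11-fold rise. No such rise was called after 70% resection: PH70 differed from PH30 by 0.18 (adjusted p = 0.61), and the step difference was 4.47, SE 0.27, adjusted p = 3.08e-12.

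The bases before the gene starts of the genes with the largest rise and the largest fall are shown for orientation, since the array reads transcripts and not promoters. Each is the 250 bases before the gene start in RefSeq on build GRCr8. The first lies at chr4:80211861-80212110, plus strand, and the second, of Rgn, at chrX:4187958-4188207, minus strand. Capitals mark a CCAAT box (CCAAT, or ATTGG where it lies on the other strand) or a GC box (GGGCGG, or CCGCCC on the other strand).
Npy: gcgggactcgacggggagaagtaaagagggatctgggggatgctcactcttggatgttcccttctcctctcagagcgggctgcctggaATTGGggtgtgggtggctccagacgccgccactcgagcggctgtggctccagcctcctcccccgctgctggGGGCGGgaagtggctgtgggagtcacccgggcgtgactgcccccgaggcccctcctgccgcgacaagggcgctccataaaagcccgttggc
Rgn: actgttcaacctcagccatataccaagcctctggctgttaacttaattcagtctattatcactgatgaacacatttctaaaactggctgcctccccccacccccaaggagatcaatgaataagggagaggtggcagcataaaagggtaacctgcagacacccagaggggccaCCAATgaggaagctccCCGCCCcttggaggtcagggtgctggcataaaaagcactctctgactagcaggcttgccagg
Both strands were also searched for an AP-1 site (TGANTCA), a cyclic AMP response element (TGACGTCA), a sterol regulatory element (TCACNCCAC) and a TATA box (TATAAA), whose letters are in neither window. Over 27457 rat promoters of the same length the CCAAT box was present in 34.3%, the GC box in 32.4%, the TATA box in 13.1%, the AP-1 site in 6.36%, the cyclic AMP response element in 1.7% and the sterol regulatory element in 0.976%. The CCAAT and GC letters are thus common, and their presence here is a description only.

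The other large rises joined detoxification, adhesion, transport and stress genes. Cdh17 (liver-intestine cadherin, an adhesion protein of gut epithelium) measured 2.31, 2.66 and 3.06 in the PH90 livers, against -2.44, -1.36 and -0.01 in the PH30 livers. The groups did not overlap (log2 difference 3.99, SE 0.45, adjusted p = 3.86e-08), and the PH30 livers were themselves lower than sham livers, with a log2 difference of -1.76 (adjusted p = 0.0198). Gstm3, a mu-class glutathione transferase, measured 1.65, 3.73 and 4.13 in the PH90 livers, against -0.59, -0.27 and 0.05 in the PH30 livers. All PH90 rats were above all PH30 rats (log2 difference 3.67, SE 0.33, adjusted p = 5.33e-10). Faxdc2, which encodes a protein with a fatty acid hydroxylase domain, had a log2 difference of 3.70.

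Slc16a6, a monocarboxylate transporter that exports ketone bodies from hepatocytes in zebrafish, measured 2.47, 2.91 and 4.05 in the PH90 livers, against -1.01, -0.29 and 1.60 in the PH30 livers. The ranges did not overlap (log2 difference 3.29, SE 0.36, adjusted p = 2.42e-08), although PH30 rat 95 reached 1.60. Rdh16, a retinol dehydrogenase, differed by 3.08. Gucy2c, the receptor guanylate cyclase best known from the intestine, differed by 3.0, an 8-fold rise. Gadd45b, a stress gene induced early after hepatectomy, rose by 2.61, and Procr, the endothelial protein C receptor, by 2.57. The keratin Krt8 rose by 2.56, the cold-inducible RNA-binding protein Rbm3 by 2.51 and the receptor tyrosine phosphatase Ptprz1 by 2.48. All 12 of these genes were called, with no overlap between the groups, which the rule that chose them required.

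**Figure D2:**
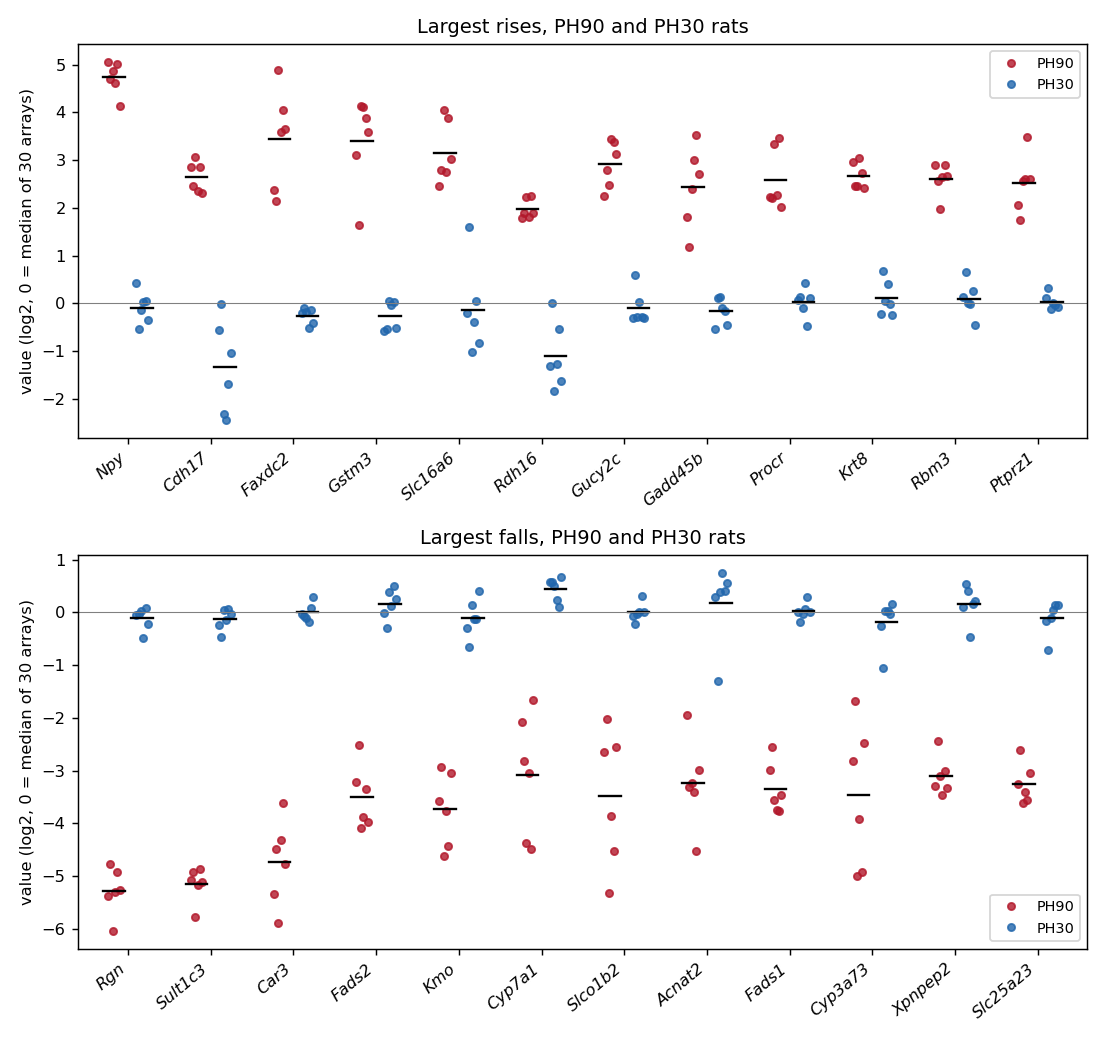
Centred log2 value of each rat for the 12 largest rises (upper panel) and the 12 largest falls (lower panel) in PH90 relative to PH30, with PH90 rats left of PH30 rats in each gene and black bars at the group means. PH90 rats stand above PH30 rats throughout the first panel and below them throughout the second, from a difference of 4.82 for Npy to -5.17 for Rgn. The genes were chosen among called genes whose groups do not overlap, so this separation was required.

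The largest fall was in Rgn, which encodes regucalcin, a calcium-binding gluconolactonase of hepatocytes. It measured -6.04, -5.28 and -4.78 in the PH90 livers, against -0.48, -0.03 and 0.08 in the PH30 livers. No value of one group came near the other, and the signal was 36-fold lower in PH90 (log2 difference -5.17, SE 0.16, adjusted p = 2.7e-20). After quantile normalization it was -3.50 (adjusted p = 7.78e-12), 11.4-fold lower, and of 135 called genes that the text follows, 64 had a fold that moved by over 1.5 times under that setting, with a median of 65.5% of the log2 difference left. PH70 livers lay by PH30 livers, and the step difference was -4.67, SE 0.27, adjusted p = 2.09e-12.

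Sult1c3, a sulfotransferase, and Car3, a carbonic anhydrase abundant in rat hepatocytes, fell almost as far. Sult1c3 measured -5.77, -5.09 and -4.86 in the PH90 livers, against -0.47, -0.09 and 0.06 in the PH30 livers (log2 difference -5.02, SE 0.15, adjusted p = 2.7e-20). Car3 measured -5.89, -4.64 and -3.61 in the PH90 livers, against -0.18, -0.05 and 0.29 in the PH30 livers (log2 difference -4.74, SE 0.24, adjusted p = 6.45e-15). After quantile normalization the differences were -2.91 (adjusted p = 9.03e-12) for Sult1c3 and -2.71 (adjusted p = 1.77e-09) for Car3. In neither gene did the groups overlap.

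Kmo, the kynurenine monooxygenase of tryptophan breakdown, had a difference of -3.62, and Slco1b2, which takes up bile acids and drugs from blood, one of -3.49. The acyl-CoA amino acid N-acyltransferase Acnat2 fell by 3.42, the P450 Cyp3a73 by 3.28, the aminopeptidase Xpnpep2 by 3.27 and the mitochondrial ATP-Mg carrier Slc25a23 by 3.14. Fads2, Fads1 and Cyp7a1 complete the 12 largest falls and are described with their pathways. For these 12 genes too, the rule that chose them required that the groups do not overlap.

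Bile acid genes were lower in PH90 livers. Of 24 measured genes of bile acid synthesis and transport 16 were lower and 2 higher, with a median difference of -1.06. The mean over the list ran from -1.78 to -0.60 in PH90 rats, with a median of -1.03, and from -0.17 to 0.09 in PH30 rats, with a median of -0.02. No PH90 rat reached the lowest PH30 rat.

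Cyp7a1, the rate-limiting enzyme of bile acid synthesis from cholesterol, measured -4.49, -2.93 and -1.66 in the PH90 livers, against 0.10, 0.53 and 0.67 in the PH30 livers. The PH90 rats varied widely among themselves but none overlapped the PH30 rats (log2 difference -3.52, SE 0.49, adjusted p = 1.07e-06). Slc10a1, the sodium-dependent transporter that takes bile acids back from portal blood, measured -3.81, -3.12 and -2.47 in the PH90 livers, against -0.68, -0.10 and 0.15 in the PH30 livers (log2 difference -2.90, SE 0.17, adjusted p = 9.2e-14), again without overlap. The later synthetic steps moved in the same direction, with -2.48 for the reductase Akr1d1 and -2.07 for Slc27a5, which couples bile acids to coenzyme A. The 2 members that rose were both export pumps: Abcb4, the phospholipid transporter of the canalicular membrane, by 2.0 (adjusted p = 1.05e-10) and Abcc3, which exports bile acids back into blood, by 0.94 (adjusted p = 0.000162).

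Drug-metabolizing P450 genes were lower as a group. Of 33 measured members 23 were lower and 5 higher, the median difference was -0.82, and 18 were lower with no overlap between the groups. List means were -1.39, -0.92 and -0.60 in PH90 rats (lowest, median and highest), against -0.19, -0.09 and 0.14 in PH30 rats. Cyp2b2, which phenobarbital induces, measured -3.37, -3.05 and -2.86 in the PH90 livers, against -0.75, -0.11 and 1.22 in the PH30 livers (log2 difference -3.11, SE 0.34, adjusted p = 2.29e-08). Cyp2c11, the male-specific steroid hydroxylase of rat liver, measured -3.45, -2.78 and -2.08 in the PH90 livers, against -0.45, -0.10 and 0.25 in the PH30 livers (log2 difference -2.63, SE 0.18, adjusted p = 2.25e-12). The PH90 rats lay below all PH30 rats in both genes. Differences were -2.95 for Cyp4f4, -2.35 for Cyp3a2 and -2.14 for the ethanol-metabolizing Cyp2e1.

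Conjugating enzymes were mixed, with 12 of 28 lower, 6 higher and a median of -0.10. Gstm3 headed the rises, whereas the alpha-class transferase Gsta2 differed by -2.90 and the glucuronosyltransferase Ugt2b1 by -1.98 (adjusted p = 4.31e-05). Sult2a1, which sulfates steroids and bile acids, measured -5.49, -3.38 and -1.0 in the PH90 livers, against -3.65, 0.47 and 1.06 in the PH30 livers. Its groups overlapped, with PH30 rat 99 at -3.65, and its call (log2 difference -3.12, SE 1.04, adjusted p = 0.0211) was lost when PH90 rat 61, 106 or 111 was left out, with array weights and after quantile normalization.

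Genes of fatty acid desaturation and synthesis fell more often than they rose. Of 19 lipogenesis genes 12 were lower, 4 higher and 10 lower without overlap, with a median of -0.84. Fads2 and Fads1, neighbouring genes for desaturases of polyunsaturated fatty acids, had the largest falls of the list. Fads2 measured -4.10, -3.61 and -2.51 in the PH90 livers, against -0.30, 0.19 and 0.50 in the PH30 livers (log2 difference -3.66, SE 0.24, adjusted p = 9.55e-13). Fads1 measured -3.78, -3.51 and -2.56 in the PH90 livers, against -0.19, 0.0 and 0.29 in the PH30 livers (log2 difference -3.37, SE 0.16, adjusted p = 3.9e-15). The 6 PH90 rats lay below all PH30 rats in both genes. Their 250-base upstream windows on RefSeq GRCr8 are shown because the genes changed alike. Fads2 lies at chr1:216172034-216172283, minus strand, and Fads1 at chr1:216252442-216252691, plus strand, with the CCAAT and GC boxes in capitals as above and no match to the other motifs searched.
Fads2: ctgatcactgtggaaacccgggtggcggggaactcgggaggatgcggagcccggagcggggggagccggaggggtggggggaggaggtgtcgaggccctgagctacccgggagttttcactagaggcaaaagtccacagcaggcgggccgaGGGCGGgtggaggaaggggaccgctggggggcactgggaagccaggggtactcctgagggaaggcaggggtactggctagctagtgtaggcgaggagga
Fads1: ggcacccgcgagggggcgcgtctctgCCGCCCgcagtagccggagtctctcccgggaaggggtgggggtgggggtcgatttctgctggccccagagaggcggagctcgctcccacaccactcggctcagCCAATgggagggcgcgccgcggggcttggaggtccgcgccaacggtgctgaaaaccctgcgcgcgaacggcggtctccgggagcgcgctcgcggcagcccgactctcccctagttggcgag
Acss2, which makes acetyl-CoA from acetate, differed by -2.26, the lipogenic transcription factor Srebf1 by -1.98 and the lipogenic nuclear protein Thrsp by -1.72.

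Cholesterol synthesis genes were lower as well, 12 of 18 enzymes, with none higher, with a median of -0.58. Ebp, a sterol isomerase, measured -2.21, -2.04 and -1.67 in the PH90 livers, against -0.03, 0.29 and 0.43 in the PH30 livers (log2 difference -2.22, SE 0.14, adjusted p = 5.1e-13), without overlap. The sterol dehydrogenase Nsdhl differed by -1.66, and Fdft1, squalene synthase, by -1.63. In the list of lipid droplet and lipolysis genes the balance was the other way, with 10 of 21 higher and 4 lower at a median of 0.20. Plin2, the coat protein of hepatocyte lipid droplets, measured 1.37, 1.56 and 2.01 in the PH90 livers, against -0.67, -0.47 and 0.14 in the PH30 livers. Its groups were apart (log2 difference 1.91, SE 0.14, adjusted p = 8.29e-12). Cidea, a droplet fusion protein, rose by 1.88 and the triglyceride lipase Pnpla2 by 1.54, while Cideb, which aids lipoprotein loading, fell by 1.68.

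Fatty acid oxidation and ketogenesis had no common direction, with 11 of 29 members lower, 6 higher and a median of 0.04. Bdh1, which makes the ketone body hydroxybutyrate, measured -3.76, -2.92 and -2.19 in the PH90 livers, against -0.47, -0.10 and 0.30 in the PH30 livers (log2 difference -2.77, SE 0.23, adjusted p = 1.64e-10), and its groups were apart. Acsl1, the acyl-CoA synthetase that starts fatty acid use, differed by -2.35. Higher members included the mitochondrial thioesterase Acot2, at 2.07, and the carnitine palmitoyltransferase Cpt2, at 0.64 (adjusted p = 4.81e-08). Ppara, the nuclear receptor that drives this programme in fasting, was itself lower (log2 difference -1.08, SE 0.26, adjusted p = 0.00176).

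Amino acid breakdown was divided. Of 42 measured genes of the urea cycle and amino acid catabolism 22 were lower and 11 higher, 21 changed at least 2-fold, and the median was -0.47. Within the urea cycle 4 of 5 enzymes rose. Asl, argininosuccinate lyase, measured 1.18, 1.56 and 1.71 in the PH90 livers, against -0.80, -0.43 and 0.72 in the PH30 livers. Its ranges were apart (log2 difference 1.83, SE 0.17, adjusted p = 1.68e-09), although PH30 rat 95, at 0.72, was far from the other PH30 rats. Arg1, the arginase that releases urea, rose by 1.40, and Ass1, argininosuccinate synthase, by 0.80. Cps1, the entry enzyme of the cycle, measured -0.04, 0.22 and 0.55 in the PH90 livers, against -0.61, -0.31 and 0.16 in the PH30 livers. These ranges overlapped and the rise was small (log2 difference 0.48, SE 0.12, adjusted p = 0.00174).

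Otc, ornithine transcarbamylase, went against the rest of the cycle and measured -1.61, -1.24 and -0.91 in the PH90 livers, against -0.30, -0.01 and 0.45 in the PH30 livers (log2 difference -1.24, SE 0.13, adjusted p = 6.35e-09). The cytosolic aspartate aminotransferase Got1, which supplies aspartate, measured 1.64, 2.10 and 2.54 in the PH90 livers, against -0.81, -0.15 and 0.06 in the PH30 livers (log2 difference 2.38, SE 0.21, adjusted p = 5.07e-10). In Otc and in Got1 the groups did not overlap. Got1 was also among the 5 largest positive step differences (2.45, SE 0.37, adjusted p = 9.52e-05), beside Npy, Faxdc2, Gstm3 and Ptprz1. Tat, the glucocorticoid-induced tyrosine aminotransferase, rose by 1.23. Among the falls were Kmo, the cysteine dioxygenase Cdo1 at -2.57 and the proline dehydrogenase Prodh at -2.46.

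**Figure D3:**
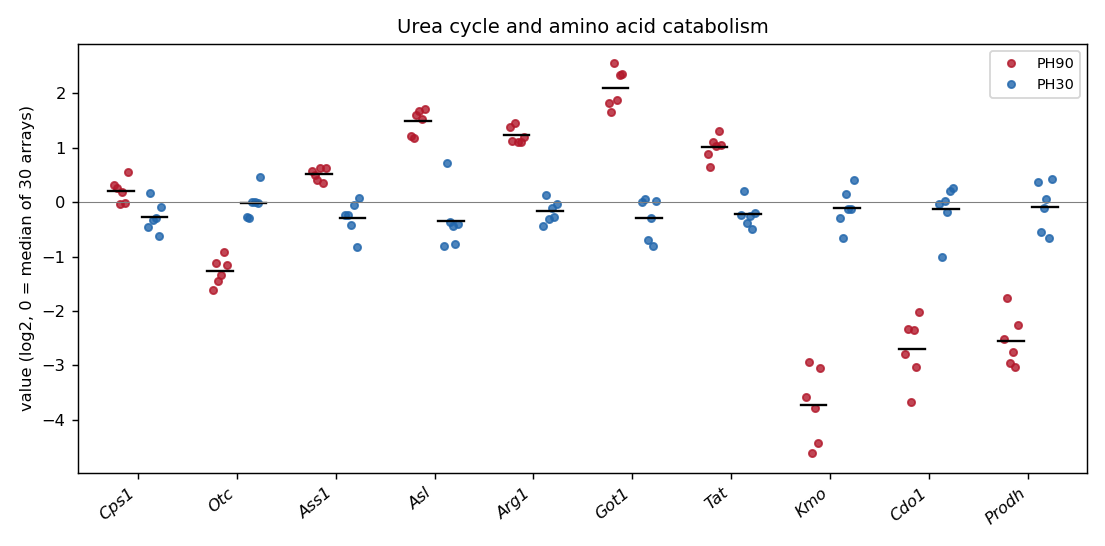
Centred log2 value of each rat for 5 urea cycle enzymes and 5 enzymes of amino acid breakdown, PH90 rats left of PH30 rats, with black bars at the group means. Asl, Arg1, Got1 and Tat are higher in PH90, Otc, Kmo, Cdo1 and Prodh are lower, and the values of Cps1 overlap.

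Of 18 measured genes of glucose and glycogen metabolism 8 were lower and 3 higher, with a median of -0.19. Ppp1r3b, which targets protein phosphatase to glycogen, measured -2.79, -2.50 and -1.70 in the PH90 livers, against -0.85, 0.07 and 0.44 in the PH30 livers (log2 difference -2.28, SE 0.22, adjusted p = 2.37e-09), and no PH90 value reached the PH30 values. Ketohexokinase (Khk) differed by -2.14, pyruvate carboxylase (Pc) by -1.68 and liver pyruvate kinase (Pklr) by -1.66.

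Genes for secreted plasma proteins fell broadly. Of 35 measured coagulation and complement genes 31 were lower, none was higher, and 26 were lower with no overlap between the groups, at a median of -0.74. The list mean lay between -1.09 and -0.58 in PH90 rats, with a median of -0.81, and between -0.11 and 0.17 in PH30 rats, with a median of 0.09. Klkb1, plasma prekallikrein, measured -3.32, -2.75 and -2.49 in the PH90 livers, against -0.58, 0.21 and 0.31 in the PH30 livers (log2 difference -2.85, SE 0.17, adjusted p = 2.37e-13). Mbl1, a mannose-binding lectin that starts the complement cascade, measured -2.85, -1.71 and -1.17 in the PH90 livers, against -0.08, 0.30 and 0.42 in the PH30 livers (log2 difference -2.21, SE 0.18, adjusted p = 1.47e-10). In both genes each PH90 rat was below each PH30 rat. The histidine-rich glycoprotein Hrg differed by -1.74.

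Of 24 plasma carriers and apolipoproteins 18 were lower and 2 higher, with a median of -0.49. Among the lower ones was Serpina6, the corticosteroid-binding globulin (log2 difference -1.83, SE 0.21, adjusted p = 6.97e-08). Albumin (Alb) was not called and measured -0.11, -0.06 and -0.02 in the PH90 livers, against -0.07, -0.01 and 0.02 in the PH30 livers, with overlapping ranges (adjusted p = 0.366). Afp, the fetal plasma protein, was not called either, at -0.03 (adjusted p = 0.904). The acute-phase genes had no common direction, with 9 of 26 higher and 10 lower at a median of -0.05. Il1rn, the interleukin-1 receptor antagonist, rose by 1.11 (adjusted p = 0.00074), while ceruloplasmin (Cp) differed by -0.97, the complement inhibitor Serping1 by -0.83 and Orm1, orosomucoid, by -0.81. Lcn2, lipocalin, differed by 1.06 with an adjusted p of 0.0838.

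Cell division genes were not called between the resections at either end of the scale. None of 41 measured mitosis genes was called in either direction, and the median difference was -0.51. The list mean was -0.52, -0.07 and 0.38 in PH90 rats (lowest, median and highest), against -0.26, 0.08 and 2.25 in PH30 rats. The highest PH30 value is that of rat 95, and the next highest PH30 rat was at 0.92, above the highest PH90 rat, while 2 PH90 rats lay below the lowest PH30 rat, so the groups overlapped in part. Without rats 95 and 139 the counts were again 0 and 0, and with the rat number as a covariate 1 member was lower.

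The mitosis mean reached its highest median in PH70 livers, at 1.90 between -0.17, in rat 139, and 2.27, and sham livers lay between -0.61 and -0.46. Unoperated livers lay above sham livers, between -0.085 and 0.14 with a median of 0.076, inside the ranges of both PH90 and PH30 rats. The counts against sham livers below are therefore not counts against unoperated livers. Against PH70 livers all 41 measured mitosis genes were lower in PH90 livers (median -1.54), where 10.4% of all genes were lower. Between PH70 and PH30 livers 5 of them were higher in PH70, where 1.76% of all genes were. Without rats 95 and 139 all 41 were higher in PH70, at a median of 1.81, where 8.87% of all genes were. The step difference was negative for 40 of the 41, against 4.52% of all genes called negative. Against sham livers 2 were higher in PH90 livers (19.9% of all genes) and 6 in PH30 livers (2.2%). Without the pair of rats these counts were 19 (21.1%) and 28 (4.88%).

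Mki67, the proliferation antigen, measured -1.99, -0.37 and 0.78 in the PH90 livers, against -0.55, 0.46 and 3.10 in the PH30 livers. The PH70 livers measured -0.26, 2.62 and 3.0. The PH90 and PH30 ranges overlapped (log2 difference -1.31, SE 0.52, adjusted p = 0.0545), whereas the step difference was -4.0, SE 0.90, adjusted p = 0.0049. Top2a, a topoisomerase that untangles replicated chromosomes, had a step difference of -4.19, SE 0.90, adjusted p = 0.00337, and Rrm2, the ribonucleotide reductase subunit of DNA synthesis, one of -5.15, SE 1.03, adjusted p = 0.00204. Without rats 95 and 139 the step differences were -5.42 (adjusted p = 5.61e-07) for Mki67, -5.68 (adjusted p = 4.59e-08) for Top2a and -6.92 (adjusted p = 1.19e-08) for Rrm2. Between PH90 and PH30 neither Top2a, at -1.07 (adjusted p = 0.121), nor Rrm2, at -1.18 (adjusted p = 0.141), was called. Cdk1, the kinase that starts mitosis, was not called at -0.57 (adjusted p = 0.317). Without PH30 rat 95 the differences were -0.85 (adjusted p = 0.18) for Mki67, -0.56 (adjusted p = 0.373) for Top2a, -0.62 (adjusted p = 0.412) for Rrm2 and -0.21 (adjusted p = 0.722) for Cdk1, still not called. Mki67 was called lower in 6 of 21 alternatives, none of which left out rat 95.

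DNA replication genes were counted apart from mitosis genes. Of 37 measured members 1 was called higher, Orc1 of the origin recognition complex at 0.24, and none lower, with a median of 0.10. Without rats 95 and 139 the count was 14 higher and none lower, and with array weights, by which limma counts arrays that stand apart for less, it was 9 higher. Against sham livers 27 of the 37 were higher in PH90 (19.9% of all genes) and 11 in PH30 (2.2%). Against PH70 livers 17 were lower in PH90 (10.4% of all genes) and none higher. Without the same rats the counts were 32 (21.1%) and 20 (4.88%) against sham livers and 30 lower (11.1%) against PH70 livers. The percentages are the shares of all genes in each comparison.

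**Figure D4:**
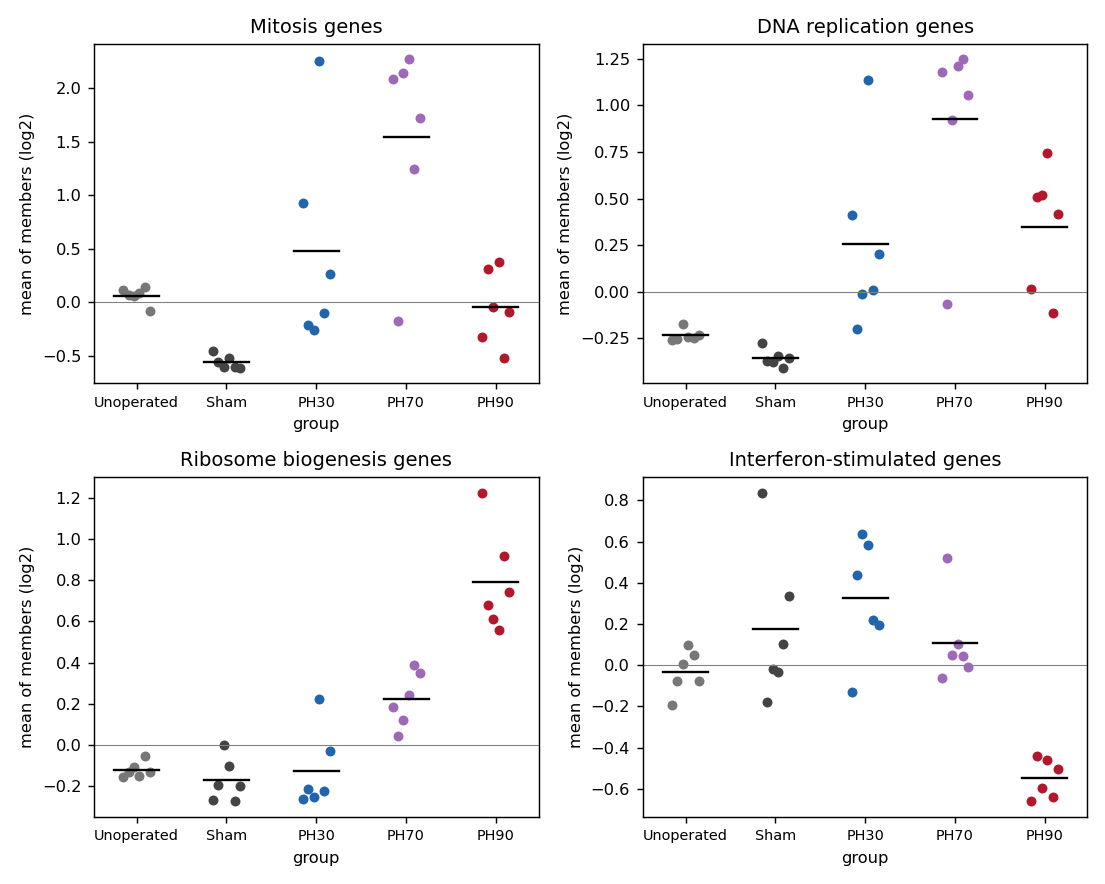
Mean centred log2 value of each rat over mitosis, DNA replication, ribosome biogenesis and interferon-stimulated genes, by group in order of resection size after the unoperated and sham groups, with black bars at the group means. Mitosis peaks in PH70 rats, ribosome biogenesis is highest in PH90 rats, and interferon-stimulated genes are lowest there.

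Genes of the exit from quiescence were higher where they were called. Of 24 measured G1 and immediate early genes 11 were higher and none lower, at a median of 0.43. Ccnd1, the cyclin of G1 progression, measured 0.57, 1.43 and 2.43 in the PH90 livers, against -0.33, -0.05 and 0.71 in the PH30 livers. The ranges overlapped, and the rise was called (log2 difference 1.37, SE 0.29, adjusted p = 0.000355). The difference from PH70 livers was 0.56 (adjusted p = 0.178). The transcription factor Klf6 rose by 1.72, Jun by 1.10 and Myc by 1.09. The Jun value is the mean of 2 probe sets, which gave 0.51 and 1.69.

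Inhibitors of the cycle and targets of p53 were mixed, with 7 of 18 higher and 4 lower. Cdkn1a, the p21 inhibitor of cyclin-dependent kinases, measured 0.90, 1.16 and 1.73 in the PH90 livers, against -0.78, -0.36 and 1.71 in the PH30 livers. Its ranges overlapped (log2 difference 1.33, SE 0.31, adjusted p = 0.000982), with PH30 rat 95 at 1.71, and the difference without that rat was 1.70 (adjusted p = 1.08e-06). Ccng1, a cyclin induced by p53, rose by 1.41, and by 1.70 (adjusted p = 3.1e-08) without it, and Ei24, another p53 target, fell by 0.97.

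Growth factor and growth hormone genes were lower more often than higher. Of 30 measured ligands, receptors and binding proteins 13 were lower and 1 higher, at a median of -0.18. Igfals, the subunit that stabilizes circulating insulin-like growth factor, measured -3.80, -2.98 and -1.98 in the PH90 livers, against -0.66, -0.04 and 0.20 in the PH30 livers (log2 difference -2.90, SE 0.23, adjusted p = 6.16e-11). Ghr, the growth hormone receptor, measured -2.57, -1.99 and -1.29 in the PH90 livers, against -0.50, -0.13 and 0.16 in the PH30 livers (log2 difference -1.79, SE 0.18, adjusted p = 6.38e-09). Neither gene had overlapping groups. Socs2, an inducible inhibitor of that receptor, fell by 2.18 (adjusted p = 0.000454).

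The inhibin beta subunits that hepatocytes make were lower as well, Inhbc by a difference of -2.28 and Inhbe by -1.89. Igf1 itself differed by -0.28 (adjusted p = 0.00264). Hgf, the hepatocyte growth factor made by stellate and endothelial cells, was not called at -0.07 (adjusted p = 0.841).

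Ribosome biogenesis rose almost in full. Of 27 measured members 26 were higher and none lower, 17 without overlap, at a median of 0.96. The list mean was 0.56, 0.71 and 1.22 in PH90 rats (lowest, median and highest), against -0.26, -0.22 and 0.22 in PH30 rats. All PH90 rats were above all PH30 rats. Nop58, a core protein of box C/D ribonucleoproteins, measured 0.98, 1.24 and 2.24 in the PH90 livers, against -0.68, -0.35 and 1.19 in the PH30 livers (log2 difference 1.57, SE 0.21, adjusted p = 6.85e-07), and the ranges overlapped through PH30 rat 95, at 1.19. Without that rat the difference was 1.84 (adjusted p = 3.94e-11). The rises were 1.38 for the nucleolar Mybbp1a, 1.31 for Nop56 and 1.16 for nucleolin (Ncl). Against PH70 livers 24 of the 27 were higher in PH90 livers, where 14.1% of all genes were. All 27 were higher than in sham livers, where 19.9% of all genes were.

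Chaperone genes of the cytosol mostly rose. Of 18 heat shock and cytosolic chaperone genes 10 were higher and 2 lower, at a median of 0.41. Cryab, a small heat shock protein, measured 1.05, 1.41 and 2.03 in the PH90 livers, against -0.20, -0.12 and 0.75 in the PH30 livers (log2 difference 1.40, SE 0.16, adjusted p = 4.48e-08), with the groups apart. The chaperonin subunit Cct5 rose by 1.0 and the mitochondrial chaperonin Hspd1 by 0.94. In the unfolded protein response of the endoplasmic reticulum 6 of 26 were higher and 9 lower, at a median of 0.01. Edem1, which marks misfolded glycoproteins for degradation, rose by 1.92 and the stress pseudokinase Trib3 by 0.92, whereas the transcription factor Atf5 fell by 1.67 and Sel1l, an adaptor of the same degradation pathway, by 1.10. Hspa5, the main chaperone of the compartment, was not called at 0.29 (adjusted p = 0.0627).

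Antioxidant genes that NRF2 controls were split, 8 of 22 higher and 7 lower, at a median of -0.03. Sod2, the mitochondrial superoxide dismutase, rose by 1.08 and sulfiredoxin (Srxn1) by 1.05. The glutathione synthesis subunit Gclm differed by -0.90 and the epoxide hydrolase Ephx1 by -0.98. Of 21 hypoxia genes 7 (33.3%) were higher, where 18.4% of all genes were, and 3 (14.3%) lower, where 13.1% were. The differences ran from -0.45 to 1.87, at a median of 0.17. The highest was that of Anxa2, a membrane-binding annexin and the 1 member that changed at least 2-fold. Ldha, lactate dehydrogenase, rose by 0.84.

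Interferon-stimulated genes were lower in PH90 livers. Of 24 measured members 21 were lower, none was higher and 15 had no overlap, at a median of -0.83. The list mean was -0.66, -0.55 and -0.44 in PH90 rats (lowest, median and highest), against -0.13, 0.33 and 0.64 in PH30 rats. Every PH90 rat was below every PH30 rat. The antiviral GTPase Mx2 measured -1.47, -0.70 and -0.16 in the PH90 livers, against -0.09, 0.95 and 2.35 in the PH30 livers (log2 difference -1.79, SE 0.40, adjusted p = 0.000644). Cxcl11, a chemokine that recruits T cells, measured -1.98, -1.79 and -0.97 in the PH90 livers, against -0.20, 0.13 and 0.31 in the PH30 livers (log2 difference -1.76, SE 0.13, adjusted p = 1.9e-11). The groups lay close in Mx2 and further apart in Cxcl11, without overlap in either.

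The immunoproteasome subunit Psmb8 differed by -1.55, the transcription factor Irf7 by -1.43 and the receptor transporter Rtp4 by -1.07. Against PH70 livers 14 of the 24 were lower in PH90 livers (10.4% of all genes), and against sham livers 18 were (14.7%). In PH30 livers 1 was higher than in sham livers and none was lower, where 5.53% of all genes were called, 3.34% lower. Without rats 95 and 139, 12 of the 24 were lower in PH90 against PH70 (11.1% of all genes) and 18 against sham (15.4%). In PH30 against sham 1 of the 24 was higher (4.17%), close to the 4.88% of all genes. Macrophage markers were lower beside them: 14 of 20 in PH90 relative to PH30, with 1 higher (Cd163 at 0.33, named after its value was seen) and list means of -0.55 to -0.08 in PH90 rats and -0.26 to 0.43 in PH30 rats. In bulk tissue, fewer cells of a type and less RNA per cell cannot be told apart, and whether macrophages had a part in the interferon result was not tested.

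Cytokine and alarmin genes had no common direction, with 6 of 23 higher and 5 lower at a median of 0.10. Osmr, the oncostatin M receptor, measured 1.52, 2.03 and 2.77 in the PH90 livers, against -0.68, 0.29 and 0.75 in the PH30 livers (log2 difference 1.98, SE 0.25, adjusted p = 1.8e-07), and all PH90 rats were above all PH30 rats. Il1a, an interleukin-1 alarmin, fell by 0.92.

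Markers of the liver's cell types did not move as one. Hepatocyte markers were higher for 2 of 10, Tat at 1.23 and Cps1 at 0.48, and lower for 5, at a median of -0.19. The lower ones included Cyp2e1, at -2.14, and the asialoglycoprotein receptor subunits Asgr1, at -1.07, and Asgr2, at -1.59. Albumin was not called. The mean over the hepatocyte list ran from -0.68 to -0.49 in PH90 rats and from -0.17 to 0.05 in PH30 rats. Among macrophage markers Cd5l, a secreted scavenger protein, measured -1.31, -0.81 and -0.53 in the PH90 livers, against -0.37, 0.47 and 0.88 in the PH30 livers (log2 difference -1.18, SE 0.18, adjusted p = 7.11e-06), with the ranges just apart. Adgre1, a surface antigen of tissue macrophages, differed by -0.95. Of 19 T and NK cell markers 7 were lower and none higher, with Ccl5 at -0.94. Of 14 neutrophil markers 2 (14.3%) were lower and none higher, close to the 13.1% of all genes that were lower. Without rats 95 and 139, 2 were lower and 1 higher, and with the rat number as a covariate 1 was lower and 2 higher. Of 11 B and plasma cell markers 3 (27.3%) were lower and 1 (9.09%) higher, where 18.4% of all genes were higher.

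Sinusoidal endothelial markers were divided, 7 of 16 lower and 4 higher, at a median of -0.29. Oit3, which marks these cells, measured -1.36, -1.23 and -1.06 in the PH90 livers, against 0.04, 0.18 and 0.43 in the PH30 livers (log2 difference -1.42, SE 0.16, adjusted p = 2.51e-08), without overlap. The lectin Clec4g differed by -1.35. In contrast Flt1, a receptor for vascular endothelial growth factor, rose by 0.74, and Wnt2, a ligand that endothelium gives to hepatocytes, by 0.67. Stellate and fibroblast markers were 5 higher and 5 lower of 20. Tagln, an actin-binding protein of contractile cells, measured 1.13, 2.28 and 2.96 in the PH90 livers, against -0.97, -0.20 and 2.34 in the PH30 livers. The ranges overlapped (log2 difference 2.01, SE 0.43, adjusted p = 0.000425). The intermediate filament genes Vim and Des rose by 1.14 and 0.90, and Lrat, which stores retinol as esters in stellate cells, differed by -1.52.

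Of 19 measured cholangiocyte and progenitor markers 4 (21.1%) were higher, close to the 18.4% of all genes. A single member (5.26%) was lower, where 13.1% of all genes were, and the median was -0.01. The higher ones included the keratins Krt8 and Krt18, which hepatocytes also make. Krt18 measured 1.63, 1.97 and 2.32 in the PH90 livers, against -0.28, 0.0 and 0.32 in the PH30 livers (log2 difference 1.93, SE 0.15, adjusted p = 3.56e-11), and the groups were far apart. Epcam rose by 0.53 (adjusted p = 0.00151). Krt19 and Krt7, keratins of bile duct cells, were not called, at -0.11 (adjusted p = 0.408) and -0.07 (adjusted p = 0.733). Erythroid markers were lower for 2 of 10 (20%), platelet markers for 1 of 8 (12.5%) and mesothelial markers for none of 7. Over all genes 13.1% were lower. No member of these lists was higher. The calls of the 2 erythroid markers were lost in 12 and 4 of 21 alternatives, and that of the platelet marker in 7.

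**Figure D5:**
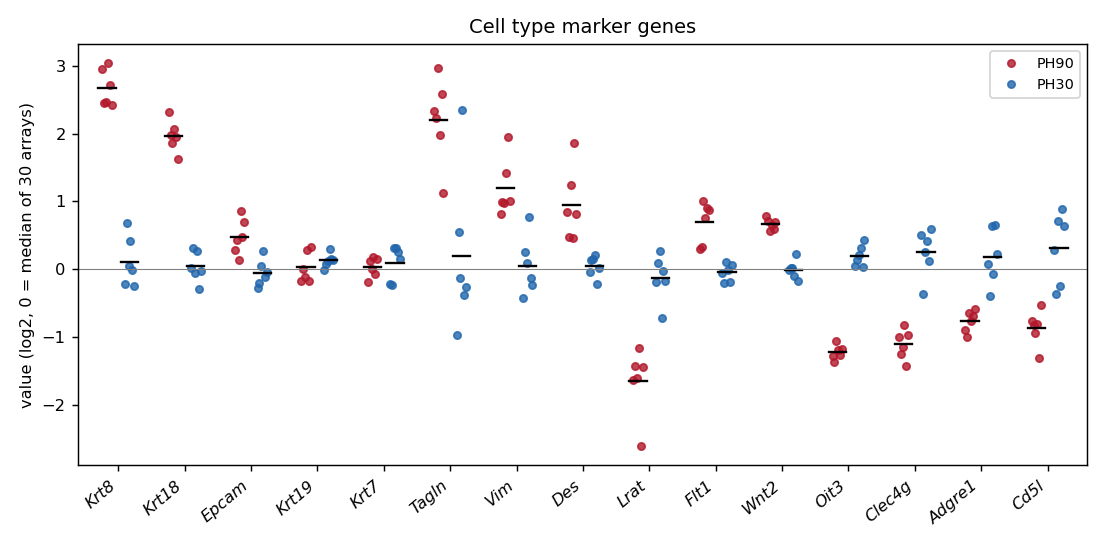
Centred log2 value of each rat for 15 genes from the cholangiocyte and progenitor, stellate, endothelial and macrophage lists. PH90 rats are left of PH30 rats, with black bars at the group means. Krt8 and Krt18, which hepatocytes also make, are higher in PH90, and so is Tagln, with overlapping ranges. Oit3, Clec4g and Cd5l are lower, and the bile duct keratins Krt19 and Krt7 overlap and were not called.

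MicroRNA genes were measured through probe sets for the precursor or its gene, which do not read the mature microRNA. Of 363 such genes 34 were lower and 5 higher, and 2 were at least 2-fold. The 10.7% called lies below the 31.5% over all genes. The mature sequences of the 2 and of Mir218-2, taken from RefSeq GRCr8, are shown because the 2 had the largest falls of all microRNA genes and Mir218-2 was among the 9 called without overlap between the groups, with the seed (bases 2 to 8) in capitals. MiR-122-5p lies at chr18:61028831-61028852, plus strand, miR-505-3p at chrX:143778784-143778803, minus strand and miR-218a-5p at chr10:20572547-20572567, plus strand. Of the 363 genes 352 matched the RefSeq table.
rno-miR-122-5p: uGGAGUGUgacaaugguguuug
rno-miR-122-3p: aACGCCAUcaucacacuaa
rno-miR-505-3p: gUCAACACuugcugguuucc
rno-miR-505-5p: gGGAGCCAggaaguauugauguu
rno-miR-218a-5p: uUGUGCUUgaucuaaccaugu
rno-miR-218a-2-3p: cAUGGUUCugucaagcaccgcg
The 6 seeds differ from one another. Mir122, the gene of the microRNA that hepatocytes make most, measured -1.67, -1.09 and -0.52 in the PH90 livers, against -0.24, 0.12 and 0.60 in the PH30 livers (log2 difference -1.23, SE 0.18, adjusted p = 1.94e-06). Mir505 measured -1.69, -1.39 and -0.92 in the PH90 livers, against -0.91, 0.42 and 0.92 in the PH30 livers (log2 difference -1.63, SE 0.25, adjusted p = 6.6e-06). The ranges almost touched in Mir505 and were apart in Mir122, without overlap in either. Mir218-2, which lies in a Slit gene, differed by -0.61 (adjusted p = 4.26e-06).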

How the data were processed

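RNA of 30 rat livers was hybridised to Affymetrix Rat Gene 2.0 ST arrays. The deposited log2 values were made by the authors with RMA in Affymetrix Expression Console, per the submitters' processing notes, with versions not given in the sources used here. Every probe set has a median of 0 over the 30 arrays, so the values were also centred, and what else was done is unknown. Column medians ran from -0.009 to 0.022. Of 29489 probe sets 18511 had 1 gene symbol, 575 several and 10403 none. Probe sets of 1 gene were averaged (291 genes), which gave 18166 genes, and in 74 genes they correlated below 0. No filter on low signal was possible, since levels were removed. The number of arrays limits the precision.

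limma 3.58.1 in R 4.3.3 was fitted with 1 mean for each of the 5 groups (25 residual degrees of freedom), tested two-sided with Benjamini-Hochberg adjustment over 18166 genes, and called at an adjusted p below 0.05. Standard errors are limma's moderated ones. The script was tested on simulated data. Alternatives were array weights, arrays left out, other normalizations and filters, and a fit of the 2 groups alone.

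The comparison, the gene lists and the naming rule were chosen with earlier results of these data known. The rule took the 12 largest rises and falls without overlap, up to 5 called members of a list, the largest step differences and single genes followed whatever their result. Otc, Ass1, Cps1, Ncl, Mir122, Mir505, Mir218-2, Krt19, Krt7, Abcb4, Abcc3, Hspa5, Cpt2 and Cd163 fall outside it and were chosen after their values were seen.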

Additional observations from a re-analysis of the deposited data

Results flagged for a closer look

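Dixon's test was applied to 302 groups of 6 values, from the named genes and 4 list means. In 28 of them (9.27%) a rat lay far from the other 5 of its group. Chance gives about 1 in 20 for independent, normally distributed groups. These groups come from the same 12 arrays and many genes were chosen by their difference, so the rates cannot be compared directly. Of the 28, 21 were PH30 rat 95, each time on the side of the PH90 mean. It was the highest PH30 rat for Gucy2c (0.60), Cdkn1a (1.71), Ccng1 (1.57), Nop58 (1.19), Nop56 (0.95), Cct5 (0.43), Srxn1 (0.62) and Asl (0.72). It was the lowest PH30 rat for Acnat2 (-1.31), Cyp3a73 (-1.05), Slc25a23 (-0.70), Ei24 (-0.27), Inhbc (-0.57), Atf5 (-1.03), Serping1 (-0.25), Cyp4f4 (-0.99), Cdo1 (-1.0), Pc (-0.94), Thrb (-0.53), Serpina6 (-1.20) and Mbl1 (-0.08). All values are centred log2 signals. All 21 genes were called in PH90 relative to PH30 with rat 95 in and without it.

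PH30 rat 99 was far below the others for Hgf (-0.96) and Sult2a1 (-3.65). Among the PH90 rats, rat 61 stood apart for Rbm3 (1.98), Sult1c3 (-5.77) and Plin2 (2.01), rat 106 for Lrat (-2.60) and rat 43 for Cxcl11 (-0.97).

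Probe sets without a single gene symbol, which no comparison above uses, also differed. Of 10978 such probe sets 1194 (10.9%) were called between PH90 and PH30, 664 higher and 530 lower.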

How the results depend on the processing

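The values have lost the level of each transcript, so dim and bright genes cannot be told apart, and 6 rats a group limit what small differences can be called. The count of genes called between PH90 and PH30 stayed within 1.5 times of 5715 under 21 alternatives: it was 5288 to 6133 with 1 rat left out, 4753 in a fit of the 2 groups alone (4664 of them among the 5715), 4236 after quantile normalization and 6298 without rats 95 and 139. With 1 rat left out, 3131 to 3488 genes were higher, 2157 to 2645 lower and 621 to 819 at least 2-fold. The share of calls that were higher ranged up to 61.4% after quantile normalization, against 58.5%. The count at least 2-fold was 708 and became 235 after quantile normalization. Genes called between PH70 and PH30 numbered 413, against 2420 without rats 95 and 139 and 2178 with array weights. Genes called between PH30 and sham livers numbered 1005, against 1984 and 1938 under the same settings. Folds shrank under quantile normalization: of 135 called genes 131 had a smaller log2 difference, from 41.8% to 107% of the value reported over the 135. That setting gives all arrays the same distribution of values and was applied to the centred values. Before it, the SD over genes was 0.363 to 0.554 in the PH90 arrays and 0.192 to 0.305 in the PH30 arrays. How much of the shrinkage this difference in spread made was not tested. Of 147 genes followed, which leave out Cd163, 135 were called, and 126 kept their call under all 21 alternatives. Under quantile normalization Socs2, Ephx1, Il1rn, Ugt2b1, Sult2a1, Ppara, Per1, Npas2 and Epcam were not called. Mki67 became called in 6 alternatives, Hspa5 in 7 and Lcn2 in 3. No named difference changed direction where it was called. No paired analysis was possible because no rat number occurs in more than 1 group.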

Other observations

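Transcription factors of hepatocyte identity and metabolism were lower in PH90 livers more often than higher, with 14 of 24 measured members lower, 3 higher and a median of -0.42. Onecut2, a homeodomain factor of liver development, differed by -1.26 on the log2 scale and Thrb, a thyroid hormone receptor, by -0.97. Pericentral hepatocyte genes, those of cells near the hepatic vein, were lower for 12 of 20 and higher for 1, at a median of -0.49. Of 17 periportal genes 7 were lower and 5 higher, at a median of -0.04, and whether the zones differ was not tested. The flavin monooxygenase Fmo1 measured -3.65, -3.17 and -2.90 in the PH90 livers, against -0.52, -0.17 and 0.42 in the PH30 livers. The groups did not overlap (log2 difference -3.14, SE 0.19, adjusted p = 4.32e-13).

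The circadian clock genes had 5 of 16 members higher and 5 lower, at a median of 0.04. Per1, a clock repressor that glucocorticoids induce, rose by 1.13, while the activators Npas2 and Bmal1 differed by -0.91 and -0.86. No source used here gives the hour of day at which each liver was taken, so clock time and resection cannot be told apart. Rbm3 and Cirbp are both RNA-binding proteins that cooling induces. Rbm3 measured 1.98, 2.66 and 2.90 in the PH90 livers, against -0.45, 0.07 and 0.65 in the PH30 livers, while Cirbp was not called (log2 difference 0.15, SE 0.11, adjusted p = 0.335).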
